A study of Mus musculus with 12 samples.

Results

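The 45 genes described here encode secreted glycoproteins, proteoglycans and crosslinking enzymes of the extracellular matrix. They were listed by symbol for their known function, not by a threshold on measured values, and all 45 were found among the 24422 features counted in each library. All 45 also passed the filter on low counts that left 16713 genes for testing. By role they fell into 6 adhesive glycoproteins, 8 matricellular glycoproteins, 12 elastic fibre components, 7 small leucine-rich proteoglycans, 5 large or basement membrane proteoglycans and nidogens, 3 lysyl oxidases and 4 other matrix glycoproteins.

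Around cells, fibrillar collagen is decorated by small proteoglycans that set fibril width and spacing, and lysyl oxidases then link the fibrils covalently. Fibrillin microfibrils, fibulins and elastin form the elastic fibres, while perlecan, agrin and nidogens hold basement membranes together. In adipose tissue this matrix is produced mainly by fibroblast-like progenitors and by cells of the vessel wall, and its accumulation with overfeeding is known as adipose fibrosis.

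RNA was taken from adipose stromal vascular cells of the mouse, those left when mature adipocytes are removed, which the sample labels call primary stromal cells. All 12 samples carried an mCherry reporter at 1 allele of p21 (Cdkn1a), a cell cycle inhibitor induced by DNA damage and senescence. The SD mCherry group (replicates 1, 2 and 3) was p21+/mcherry and fed a standard diet, and the HFD mCherry group (15, 17 and 20) was also p21+/mcherry but fed a high-fat diet. The HFD Tert group (25, 26 and 27) was p21+/mcherry-Tert and the HFD TertCi group (30, 31 and 33) p21+/mcherry-TertCi, both on a high-fat diet. In these knock-ins the p21 promoter drives Tert, the reverse transcriptase of telomerase, or TertCi, a catalytically inactive form, so the transgene is made wherever p21 is induced. No knock-in was studied on the standard diet, and the series' design text writes the high-fat controls as p21+/- whereas the labels followed here give p21+/mcherry. Fat depot, sex, age and duration of feeding are not given in the sources used here. Nothing in the labels says that the replicates are separate animals, so p-values measure the spread between these libraries.

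The libraries held 16430330 to 19486965 counts. Tert, which checks the knock-in labels against the mCherry labels, stood at 6.98 to 16.5 CPM in the 6 knock-in libraries (counts scaled to library sizes corrected by the trimmed mean of M-values). It stood at 1.02 to 1.65 CPM in HFD mCherry and at 0.463 to 3.96 CPM in SD mCherry. The HFD TertCi values, 9.52 to 15.2 CPM, lay inside the HFD Tert range, so Tert counts do not check these labels against each other. Libraries stood apart within every group by genes of other tissues. Crisp1, a secretory protein of the epididymis, exceeded 500 CPM in 8 libraries, 2 per group, with values from 640 to 14756 CPM, and was under 1 CPM in the other 4, which were SD mCherry 2, HFD mCherry 20, Tert 27 and TertCi 31 of the high-fat groups. The last of these still held Adam7, a further epididymal gene, at 149 CPM. Within HFD mCherry, 14 epididymis genes summed to 37392 CPM in replicate 15, 1986 in 17 and 9.18 in 20. The smooth muscle gene Cnn1 was lowest in the Crisp1-poor library of every group, with TertCi 31 at 239 CPM beside 2795 and 2253. Because the RNA is bulk, fewer cells of a type and less RNA per cell cannot be told apart in any value below.

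On the high-fat diet the matrix genes were higher almost as a block. Their share of all counts was 1.18, 1.16 and 0.775% in SD mCherry and 1.62, 3.68 and 3.99% in HFD mCherry, so that every library of the second group lay above every library of the first. In the knock-ins the share was lower again, at 1.32, 1.58 and 2.46% in HFD Tert and 1.16, 1.86 and 1.58% in HFD TertCi, ranges that overlap that of HFD mCherry. Of the 45 genes, 44 had an edgeR log2 fold change above 0 for HFD mCherry against SD mCherry, as had 45.9% of all genes tested. The median log2 fold change was 1.56, beside -0.0753 over all genes.

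No member reached an adjusted p under 0.05 in the edgeR quasi-likelihood test of diet, a threshold that 0.0419% of all genes passed in the higher direction. At an unadjusted p under 0.05, 33 members were higher and 0 lower (14.1% of all genes were higher). In 24 members the 3 HFD mCherry libraries all lay above the 3 SD mCherry libraries, which 13.9% of all genes did. DESeq2 called 28 members higher, against 7.85% of all genes, and limma-voom called 0. The smallest adjusted p of edgeR was 0.0652 (Tnc and Postn), and 28 members were called higher once the presence of Crisp1 was a term of the edgeR model (6.6% of all genes). Without HFD mCherry 15 edgeR called 32 members (8.76% of all genes), and without HFD Tert 27, which is in neither group but in the shared fit and filter, 17 (3.33%).

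**Figure D1:**
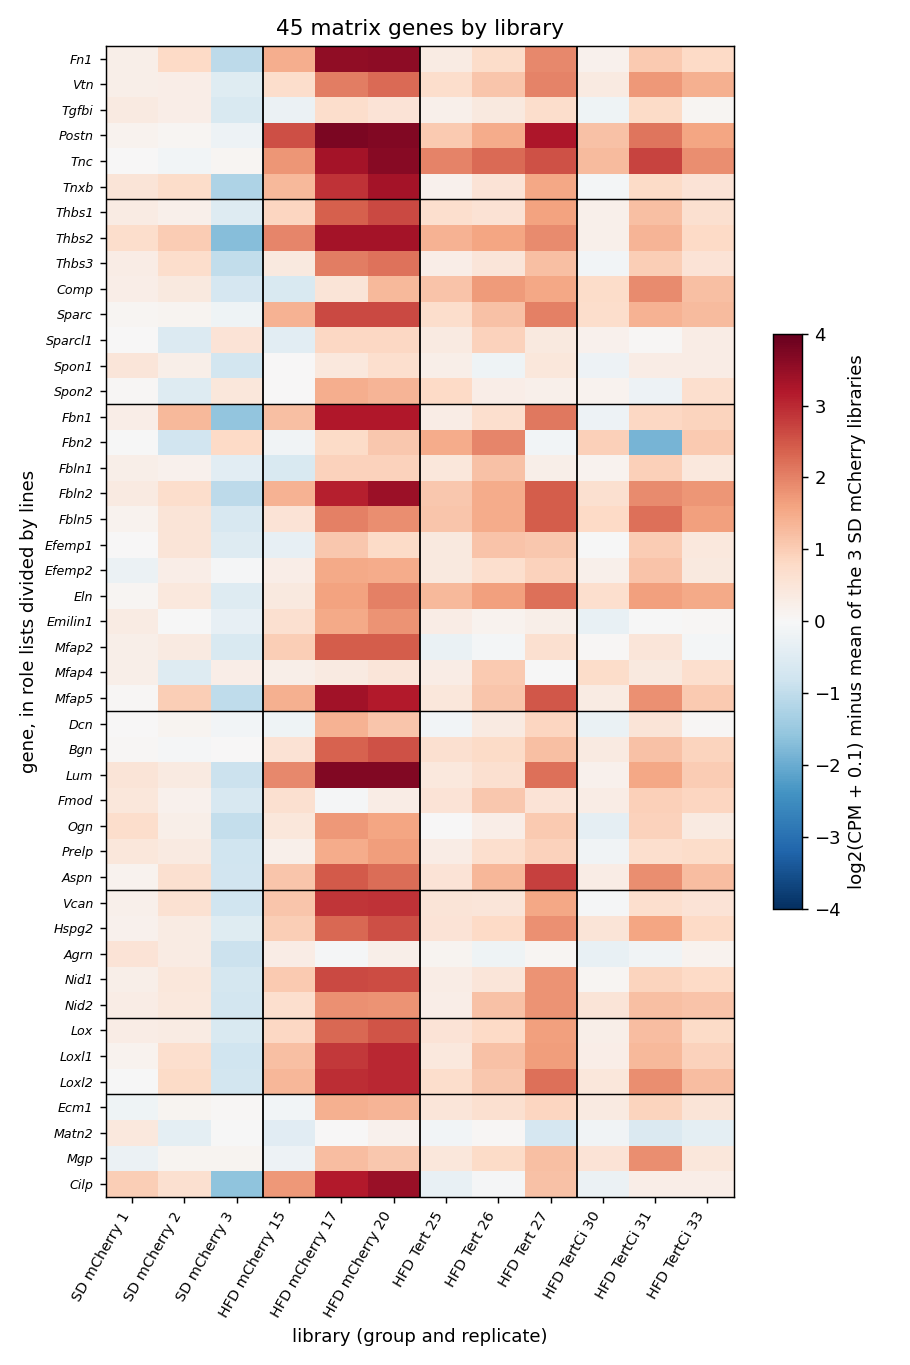
Level of each of the 45 matrix genes in each of the 12 libraries, as log2(CPM + 0.1) minus the mean of the 3 SD mCherry libraries (red higher, blue lower), with horizontal lines between role lists. HFD mCherry 17 and 20 are the darkest columns, HFD mCherry 15 was the lowest library of its group for 43 of the 45 genes, and Agrn, Matn2 and Fmod stay pale throughout.

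The promoter windows of 4 genes are shown because these mark the ends of this range: Tnc and Postn had the smallest diet p, Cilp the largest difference in the knock-ins, and Agrn almost no difference in either. Each is the 250 bases before the RefSeq transcription start (GRCm38.p6), read 5′ to 3′ on the gene's strand, and lies outside the gene model of GENCODE M21. They cover chr4:64047016-64047265 on the minus strand (Tnc), chr3:54360857-54361106 on the plus strand (Postn), chr9:65264930-65265179 on the plus strand (Cilp) and chr4:156197489-156197738 on the minus strand (Agrn). Capitals mark the GC box GGGCGG and the TATA motif TATAAA, each searched on both strands.
Tnc: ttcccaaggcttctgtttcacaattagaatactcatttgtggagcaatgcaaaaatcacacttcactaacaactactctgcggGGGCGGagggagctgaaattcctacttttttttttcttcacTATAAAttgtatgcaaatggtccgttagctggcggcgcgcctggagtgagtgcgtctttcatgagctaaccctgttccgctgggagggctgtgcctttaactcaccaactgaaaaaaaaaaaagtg
Postn: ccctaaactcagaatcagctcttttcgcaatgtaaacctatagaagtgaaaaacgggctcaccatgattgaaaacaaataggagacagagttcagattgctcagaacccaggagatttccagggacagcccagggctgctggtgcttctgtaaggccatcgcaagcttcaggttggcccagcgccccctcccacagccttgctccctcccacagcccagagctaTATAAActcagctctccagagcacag
Cilp: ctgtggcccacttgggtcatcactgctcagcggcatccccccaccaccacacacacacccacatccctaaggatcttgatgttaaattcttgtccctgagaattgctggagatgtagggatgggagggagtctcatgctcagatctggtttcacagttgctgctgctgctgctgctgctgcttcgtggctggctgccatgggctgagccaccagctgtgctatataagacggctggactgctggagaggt
Agrn: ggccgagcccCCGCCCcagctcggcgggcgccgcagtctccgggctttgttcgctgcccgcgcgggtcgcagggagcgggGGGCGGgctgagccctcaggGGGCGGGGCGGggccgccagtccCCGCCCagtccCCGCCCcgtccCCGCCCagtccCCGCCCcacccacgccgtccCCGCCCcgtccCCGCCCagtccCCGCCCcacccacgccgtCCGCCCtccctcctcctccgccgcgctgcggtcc
The Agrn window holds 12 GC boxes, between 240 and 34 bases before the start, and 35 CpG dinucleotides. Postn has no GC box and has a TATA motif 26 bases before its start. Tnc has 1 of each, the GC box 167 and the TATA motif 126 bases before its start. Cilp has no exact match to either, but its window holds the similar letters tatataag close to the start, which a search for TATAAA does not count. The windows of Postn, Cilp and Tnc hold 4, 3 and 8 CpG dinucleotides. The median was 7 over the member windows and 6 over all windows. These 4 windows do not stand for the other members. Hspg2, higher with diet, had 5 GC boxes and 20 CpG dinucleotides, and Fmod, with little diet difference, had 0 and 2. RefSeq windows were matched for 27 of the 45 genes. GGGCGG was in 14 of them (51.9%), against 32.7% of 32851 windows of the same length over all genes, and TATAAA in 7 (25.9%, against 12.4%). Of the 3 other motifs searched, on both strands, TGANTCA was in 3 (11.1%, against 6.75%), GGAATG in 4 (14.8%, against 12.6%) and CCAAT in 8 (29.6%, against 33.8%). A match to these letters is a description of the window only.

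Among the adhesive glycoproteins, which cells grip through integrins, 6 of 6 were higher in HFD mCherry than in SD mCherry (45.9% of all genes were). Of these, 5 passed an unadjusted p under 0.05 (14.1% of all genes were higher at that threshold), and the median log2 fold change was 2.73. Fibronectin (Fn1, chr1:71585520-71653200, minus strand), the main integrin ligand of newly laid matrix, stood at 368, 534 and 151 CPM in SD mCherry, 856, 3583 and 3686 in HFD mCherry, 386, 518 and 1178 with Tert and 347, 646 and 542 with TertCi. Every HFD mCherry library lay above every SD mCherry library, and HFD mCherry 15 lay inside the knock-in range. Coordinates are gene bodies on GRCm38 in GENCODE M21. The log2 fold change with diet was 2.95 ± 0.67 (SE, as for all log2 fold changes below; adjusted p = 0.0708), and across both knock-ins against HFD mCherry it was -2.18 ± 0.52 (adjusted p = 0.0795).

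Periostin (Postn, chr3:54361109-54391037, plus strand), which binds collagen and tenascin and assists collagen crosslinking, had the largest diet difference of the 45. Its values were 111, 106 and 88.1 CPM in SD mCherry, 600.4, 1391 and 1319.9 in HFD mCherry, 209, 285 and 952 with Tert and 226, 445 and 301 with TertCi. Even the lowest HFD mCherry library stood far above the SD mCherry ones, and a single knock-in library, HFD Tert 27, came within their range. The log2 fold change with diet was 3.44 ± 0.59, or 10.8-fold (adjusted p = 0.0652), and -1.48 ± 0.45 across both knock-ins (adjusted p = 0.113).

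Tenascin-C (Tnc, chr4:63959785-64047015, minus strand), a large glycoprotein of healing and inflamed tissue, had the smallest diet p. It measured 41.9, 38.6 and 43.7 CPM in SD mCherry, 142, 419 and 522 in HFD mCherry, 163, 201 and 244 with Tert and 98.7, 272 and 152 with TertCi. The SD mCherry libraries were tightly grouped, and all 9 libraries on the high-fat diet lay above them. The diet difference was 3.12 ± 0.49 on the log2 scale (adjusted p = 0.0652). Against SD mCherry the Tnc difference was 2.29 ± 0.47 with Tert (adjusted p = 0.169) and 2.07 ± 0.47 with TertCi (adjusted p = 0.243), and that of both knock-ins from HFD mCherry was -0.94 ± 0.38.

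Tenascin-X (Tnxb), which spaces collagen fibrils in skin and connective tissue, had means of 144 ± 81.0 CPM in SD mCherry and 820.1 ± 474 in HFD mCherry (SD, n = 3). Its knock-in means were 227 ± 117 and 169 ± 46.4 CPM, and its log2 fold change across both knock-ins was -2.07 ± 0.49. Vitronectin (Vtn) was 1.79 ± 0.49 higher with diet and -0.50 ± 0.41 in the knock-ins, and Tgfbi, a collagen-binding protein induced by TGF-β, was the flattest of the adhesive list, at 0.32 ± 0.34 and -0.02 ± 0.30.

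The matricellular glycoproteins, which modulate cells rather than build fibres, were divided. Sparc, the 3 thrombospondins Thbs1 to Thbs3 and Spon2 passed an unadjusted p under 0.05 with diet, and Comp, Sparcl1 and Spon1 did not. Of all genes, 14.1% were higher at that threshold. Sparc, a collagen-binding protein needed for collagen deposition in fat, read 1170.4, 1206 and 997 CPM in SD mCherry, 2949.8, 6970.3 and 6916 in HFD mCherry, 1824, 2509 and 4516 with Tert and 1836, 2958 and 2703 with TertCi. The 3 HFD mCherry libraries lay above all SD mCherry libraries, with log2 fold changes of 2.32 ± 0.44 with diet (adjusted p = 0.0659) and -1.05 ± 0.35 across both knock-ins (adjusted p = 0.139). Thrombospondin 1 (Thbs1), an activator of latent TGF-β and an inhibitor of vessel growth, gave 1180.0, 1083 and 669 CPM in SD mCherry, 1734, 4928 and 5925 in HFD mCherry, 1498, 1413 and 2927 with Tert and 1090.2, 2203 and 1477 with TertCi. HFD Tert 27 and HFD TertCi 31 exceeded HFD mCherry 15, so the groups overlapped, and the log2 fold changes were 2.10 ± 0.51 with diet and -1.25 ± 0.41 across both knock-ins.

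Thrombospondin 2 (Thbs2) is another inhibitor of vessel growth, and was 1 of 4 members (against 7.03% of all genes) whose 6 knock-in libraries all lay below the 3 HFD mCherry libraries. Its means were 27.5 ± 18.7 and 169 ± 76.4 CPM in SD mCherry and HFD mCherry, and 65.6 ± 11.3 and 38.1 ± 15 CPM with Tert and TertCi (SD, n = 3). Comp, the cartilage thrombospondin, was scarce at 1.68 to 10.3 CPM (29 to 171 counts) and had its highest means in the knock-ins, 7.80 ± 1.49 and 7.09 ± 2.91 CPM against 4.17 ± 2.56 in HFD mCherry. The Comp difference across both knock-ins was 0.83 ± 0.46 (adjusted p = 0.325), the largest in the higher direction among the 45.

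The elastic fibre components were mixed in the knock-ins, with 6 of 12 lower and 6 higher than in HFD mCherry across both and a median log2 fold change of -0.244. With Tert alone 6 were lower and 6 higher, and with TertCi alone 10 were lower and 2 higher. With diet 12 of 12 were higher (45.9% of all genes were), 8 of them at an unadjusted p under 0.05 (14.1% of all genes). Fbln2 and Fbn1 had the highest CPM of the list, not corrected for length. Fibulin-2 (Fbln2), a linker between fibrillin and basement membrane, stood at 186, 232 and 69.1 CPM in SD mCherry, 381, 1249 and 1527 in HFD mCherry, 304, 399.6 and 778 with Tert and 226, 538 and 494 with TertCi. Fibrillin-1 (Fbn1), the core of the microfibril, stood at 176, 358 and 48.9 CPM in SD mCherry, 337, 1345 and 1355 in HFD mCherry, 178, 232 and 635 with Tert and 127, 261 and 269 with TertCi. HFD mCherry 17 and 20 exceeded every other library for both genes. Diet log2 fold changes were 2.70 ± 0.64 (adjusted p = 0.0727) and 2.38 ± 0.78 (adjusted p = 0.119), and those across both knock-ins -1.21 ± 0.50 and -1.87 ± 0.62.

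Emilin1 and Mfap2 had the smallest p of all members in each knock-in comparison. Emilin-1 (Emilin1, chr5:30913402-30921277, plus strand) sits between elastin and microfibrils and restrains TGF-β processing. Its values were 53.5, 42.3 and 33.5 CPM in SD mCherry, 65.7, 120.4 and 146 in HFD mCherry, 51.9, 46.5 and 49.5 with Tert and 34.1, 42.2 and 43.3 with TertCi. Mfap2 (chr4:141010418-141015984, plus strand), a small glycoprotein that binds fibrillin and TGF-β family ligands, was measured at 17.1, 18.6 and 9.48 CPM in SD mCherry, 28.8, 78.1 and 77.8 in HFD mCherry, 11.9, 13.6 and 22.8 with Tert and 15, 20.2 and 13.7 with TertCi. For both genes the 3 HFD mCherry libraries stood above all 9 others, and the knock-in means were close to those of SD mCherry. Log2 fold changes across both knock-ins were -1.32 ± 0.23 for Emilin1 (adjusted p = 0.0545) and -1.93 ± 0.34 for Mfap2 (adjusted p = 0.0546), and with diet 1.36 ± 0.28 and 2.03 ± 0.43.

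Elastin itself had another pattern. Eln, chosen for full values after they were seen, read 166, 209.6 and 109.7 CPM in SD mCherry, 205, 479 and 638 in HFD mCherry, 388, 490.4 and 726 with Tert and 249, 485 and 445 with TertCi. The HFD Tert mean of 535 ± 173 CPM lay above the HFD mCherry mean of 441 ± 219 (SD, n = 3), and both knock-in groups lay above all SD mCherry libraries. Against SD mCherry the log2 fold change was 1.73 ± 0.45 in HFD Tert (adjusted p = 0.169) and 1.28 ± 0.44 in HFD TertCi (adjusted p = 0.253), and against HFD mCherry 0.06 ± 0.38 over both knock-ins. Fbln5, which tethers elastin to cells and organises elastic fibre assembly, had means of 93.1 ± 34.9, 268 ± 121, 303 ± 146 and 277 ± 125 CPM in the same order of groups, the knock-in means at or above that of HFD mCherry. Efemp1, Fbln1 and Mfap4 were likewise near 0 in the knock-in comparison, at 0.11 ± 0.36, 0.05 ± 0.36 and 0.20 ± 0.25, whereas Mfap5 (-1.46 ± 0.57) was lower at an unadjusted p under 0.05 and Efemp2 stood between, at -0.53 ± 0.30. Some of these small differences changed sign: with the mean log2 level of epididymis genes as a covariate Eln was at -0.0764, Fbln5 at -0.11, Efemp1 at -0.0336 and Fbln1 at -0.00231. Several of these genes are known products of smooth muscle. The summed level of 10 pericyte and smooth muscle markers ranged over 3003 to 24349 CPM in SD mCherry, 1693 to 3320 in HFD mCherry, 2917 to 23674 with Tert and 4199 to 14912 with TertCi. Within each group Eln was highest in the library where this sum was lowest. On the standard diet that was replicate 2 (Eln 209.6 CPM, marker sum 3003). On the high-fat diet it was replicates 20 (638 and 1693), 27 (726 and 2917) and 31 (485 and 4199). Mfap4 was instead lowest in that library in 3 groups. In the knock-ins 7 of these 10 markers were higher than in HFD mCherry and 3 lower, with none at 0 in any library, and their part in the elastic fibre values was not tested.

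**Figure D2:**
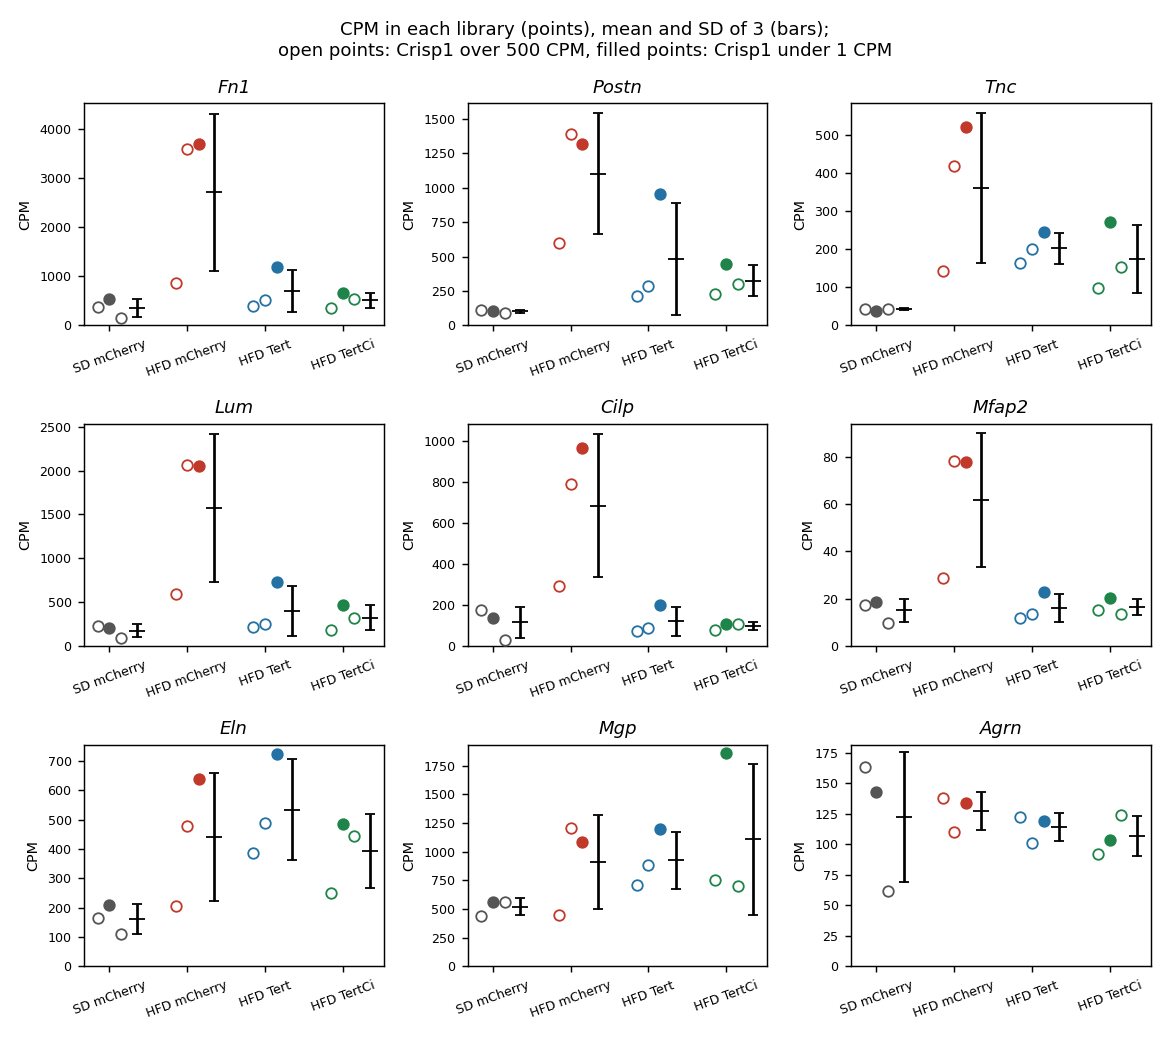
CPM of 9 matrix genes in each library (points), with the mean and SD of the 3 libraries per group (bars), on linear axes that start at 0; open points are libraries with Crisp1 over 500 CPM and filled points those with Crisp1 under 1 CPM. Fn1, Postn, Lum, Cilp and Mfap2 peak in HFD mCherry 17 and 20, the knock-in means of Eln and Mgp are not far from or above those of HFD mCherry, and Agrn lies between 61.8 and 163 CPM in all groups.

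The small leucine-rich proteoglycans bind collagen fibrils and limit their width. With diet 7 of 7 were higher and 6 passed an unadjusted p under 0.05 (14.1% of all genes were higher at that threshold). In the knock-ins 6 of 7 were lower, 2 of them at that threshold (13.4% of all genes). Decorin (Dcn), the most abundant of the list, stood at 1712, 1831 and 1595 CPM in SD mCherry, 1511, 4500.0 and 3687 in HFD mCherry, 1599, 2183 and 3106 with Tert and 1437, 2447 and 1762 with TertCi. HFD mCherry 15 lay below all SD mCherry libraries for Dcn, and the diet log2 fold change was 0.92 ± 0.41 (adjusted p = 0.202). Biglycan (Bgn), a close relative of decorin that also acts on innate immune receptors, read 629.7, 589 and 616 CPM in SD mCherry, 912, 3153 and 3584 in HFD mCherry, 952, 1043 and 1404 with Tert and 779, 1364 and 1124 with TertCi. All HFD mCherry libraries exceeded all SD mCherry libraries, by 2.06 ± 0.45 on the log2 scale (adjusted p = 0.0671), and the knock-in difference was -1.20 ± 0.36 (adjusted p = 0.113).

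Lumican (Lum) had the largest difference of the list, with means of 172 ± 73.9 CPM in SD mCherry, 1570.3 ± 844 in HFD mCherry, 397 ± 287 with Tert and 320.4 ± 142 with TertCi (SD, n = 3). Its log2 fold changes were 3.19 ± 0.67 with diet (adjusted p = 0.0659) and -2.14 ± 0.51 in the knock-ins (adjusted p = 0.0795). Fibromodulin (Fmod), which shares a collagen site with lumican, had another pattern. It measured 177, 145 and 83.6 CPM in SD mCherry, 199.7, 126 and 159 in HFD mCherry, 189.7, 272 and 187 with Tert and 160.0, 249.7 and 232 with TertCi. All groups overlapped for Fmod except HFD Tert, whose 3 libraries lay above SD mCherry, and the highest single values came from the knock-ins. Its diet difference was 0.26 ± 0.31 and its knock-in difference 0.41 ± 0.27 (adjusted p = 0.405). Ogn, Prelp and Aspn were 1.21 ± 0.50, 1.15 ± 0.43 and 1.92 ± 0.62 higher with diet and -0.91 ± 0.41, -0.68 ± 0.36 and -0.49 ± 0.51 in the knock-ins.

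Of the large and basement membrane proteoglycans and nidogens, 4 of 5 were higher with diet at an unadjusted p under 0.05 (14.1% of all genes). The groups of these 4 did not overlap (13.9% of all genes), and Agrn was the exception. Perlecan (Hspg2), the heparan sulfate proteoglycan of basement membranes, stood at 306, 345 and 195 CPM in SD mCherry, 540.1, 1351 and 1639 in HFD mCherry, 404, 479 and 982 with Tert and 390.5, 814 and 481 with TertCi. Nidogen-1 (Nid1), which bridges laminin and collagen IV, stood at 291, 341 and 153 CPM in SD mCherry, 508, 1528 and 1497 in HFD mCherry, 304, 346 and 867 with Tert and 264, 458 and 428 with TertCi. HFD mCherry 17 and 20 exceeded all knock-in libraries for both genes, and HFD Tert 27 was the highest knock-in library. Diet log2 fold changes were 2.06 ± 0.50 and 2.17 ± 0.54 (adjusted p = 0.0729 and 0.0755), and those across both knock-ins -0.99 ± 0.40 and -1.42 ± 0.43 (adjusted p = 0.198 and 0.116).

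Agrin (Agrn), best known from the neuromuscular junction, had values of 163, 142 and 61.8 CPM in SD mCherry, 138, 109.8 and 134 in HFD mCherry, 123, 101 and 119 with Tert and 92.2, 103 and 124 with TertCi. No group stood apart, with a diet difference of 0.06 ± 0.31 (-0.17 when scaled by library size alone) and a knock-in difference of -0.21 ± 0.26. Versican (Vcan), a hyaluronan-binding proteoglycan of provisional matrix that immune cells adhere to, had means of 62.3 ± 27.5, 324 ± 172, 111 ± 50.1 and 77.3 ± 18.8 CPM (SD, n = 3). Its log2 fold changes were 2.38 ± 0.52 with diet (adjusted p = 0.0679) and -1.80 ± 0.42 in the knock-ins (adjusted p = 0.0735). Macrophages are a further known source of versican and fibronectin. The summed level of 12 macrophage markers was 869 to 1033 CPM in SD mCherry, 2013 to 6130 in HFD mCherry, 799 to 2025 with Tert and 958 to 1679 with TertCi. All 12 markers were higher with diet and lower in the knock-ins, none was at 0 in any library, and their part in the matrix values was not tested.

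The 3 lysyl oxidases, which oxidise lysines of collagen and elastin so that they crosslink, had a like pattern. Lox read 123, 125 and 64.8 CPM in SD mCherry, 179, 487 and 573 in HFD mCherry, 147, 172 and 309.9 with Tert and 117, 237 and 171 with TertCi. Loxl2, the family member that acts on basement membrane collagen IV, read 57.8, 99.1 and 34.7 CPM in SD mCherry, 146, 453 and 474 in HFD mCherry, 95.5, 123 and 271 with Tert and 80.8, 213 and 137 with TertCi. In both genes every HFD mCherry library lay above every SD mCherry library, and HFD mCherry 15 lay inside the range of the knock-ins. Log2 fold changes with diet were 1.99 ± 0.48 for Lox, 2.48 ± 0.60 for Loxl2 and 2.43 ± 0.55 for Loxl1, the enzyme tied to elastin (adjusted p = 0.0729, 0.0729 and 0.0706). Across both knock-ins they were -1.11 ± 0.39, -1.23 ± 0.48 and -1.51 ± 0.43 (adjusted p = 0.154, 0.184 and 0.105).

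The last 4 glycoproteins had little in common. Matrix Gla protein (Mgp), an inhibitor of calcification, measured 437, 562 and 561 CPM in SD mCherry, 445, 1203 and 1088 in HFD mCherry, 705, 880.3 and 1196 with Tert and 756, 1863 and 702 with TertCi. HFD TertCi 31 held the highest Mgp level of all 12 libraries, and the knock-in difference was 0.15 ± 0.39. Extracellular matrix protein 1 (Ecm1) measured 199, 242 and 234 CPM in SD mCherry, 209, 599 and 572 in HFD mCherry, 315, 353 and 411 with Tert and 286, 413 and 319 with TertCi. HFD mCherry 15 fell within the SD mCherry range for Ecm1, whose diet difference was 1.03 ± 0.35 (adjusted p = 0.126). Matrilin-2 (Matn2), a filament-forming adaptor protein, measured 124, 71.5 and 91.7 CPM in SD mCherry, 68.8, 94.1 and 105 in HFD mCherry, 86.6, 96.5 and 58.1 with Tert and 83.9, 62.3 and 70.8 with TertCi. Matn2 was the 1 member with a negative diet log2 fold change, -0.10 ± 0.27, which ran from -0.27 to 0.13 as single libraries were left out, and SD mCherry held its highest mean.

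Cilp, a secreted glycoprotein first described in cartilage that binds TGF-β1, was chosen for full values after they were seen because its knock-in difference was the largest of the 45. It stood at 175, 138 and 28.7 CPM in SD mCherry, 292, 791 and 965 in HFD mCherry, 72.7, 84.8 and 199 with Tert and 75.8, 106 and 107 with TertCi. All 3 HFD mCherry libraries exceeded all 9 others. The Cilp difference was -2.52 ± 0.67 in HFD Tert and -2.83 ± 0.68 in HFD TertCi against HFD mCherry, and 2.58 ± 0.67 with diet (adjusted p = 0.189, 0.183 and 0.0768). The knock-in means of 119 ± 69.9 and 96.1 ± 17.6 CPM were close to the SD mCherry mean of 114 ± 76.0.

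The diet and knock-in comparisons share the 3 HFD mCherry libraries, so a high or low value there enters both with opposite sign, and no agreement between them is read here. Over both knock-ins 36 of 45 members were lower than in HFD mCherry (53.5% of all genes were), with a median log2 fold change of -0.912 (-0.583 without HFD mCherry 20) beside -0.0526 over all genes. In the edgeR test 0 members passed an adjusted p under 0.05, where 0.144% of all genes were called lower. At an unadjusted p under 0.05, 22 members were lower and 0 higher (13.4% of all genes were lower). Groups did not overlap for Emilin1, Mfap2, Cilp and Thbs2, all lower, a count of 4 (7.03% of all genes). DESeq2 called 14 lower (5.37% of all genes) and limma-voom 0. The 9 members that were not lower were Comp, Fmod, Fbn2, Mfap4, Mgp, Efemp1, Fbln5, Eln and Fbln1.

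**Figure D3:**
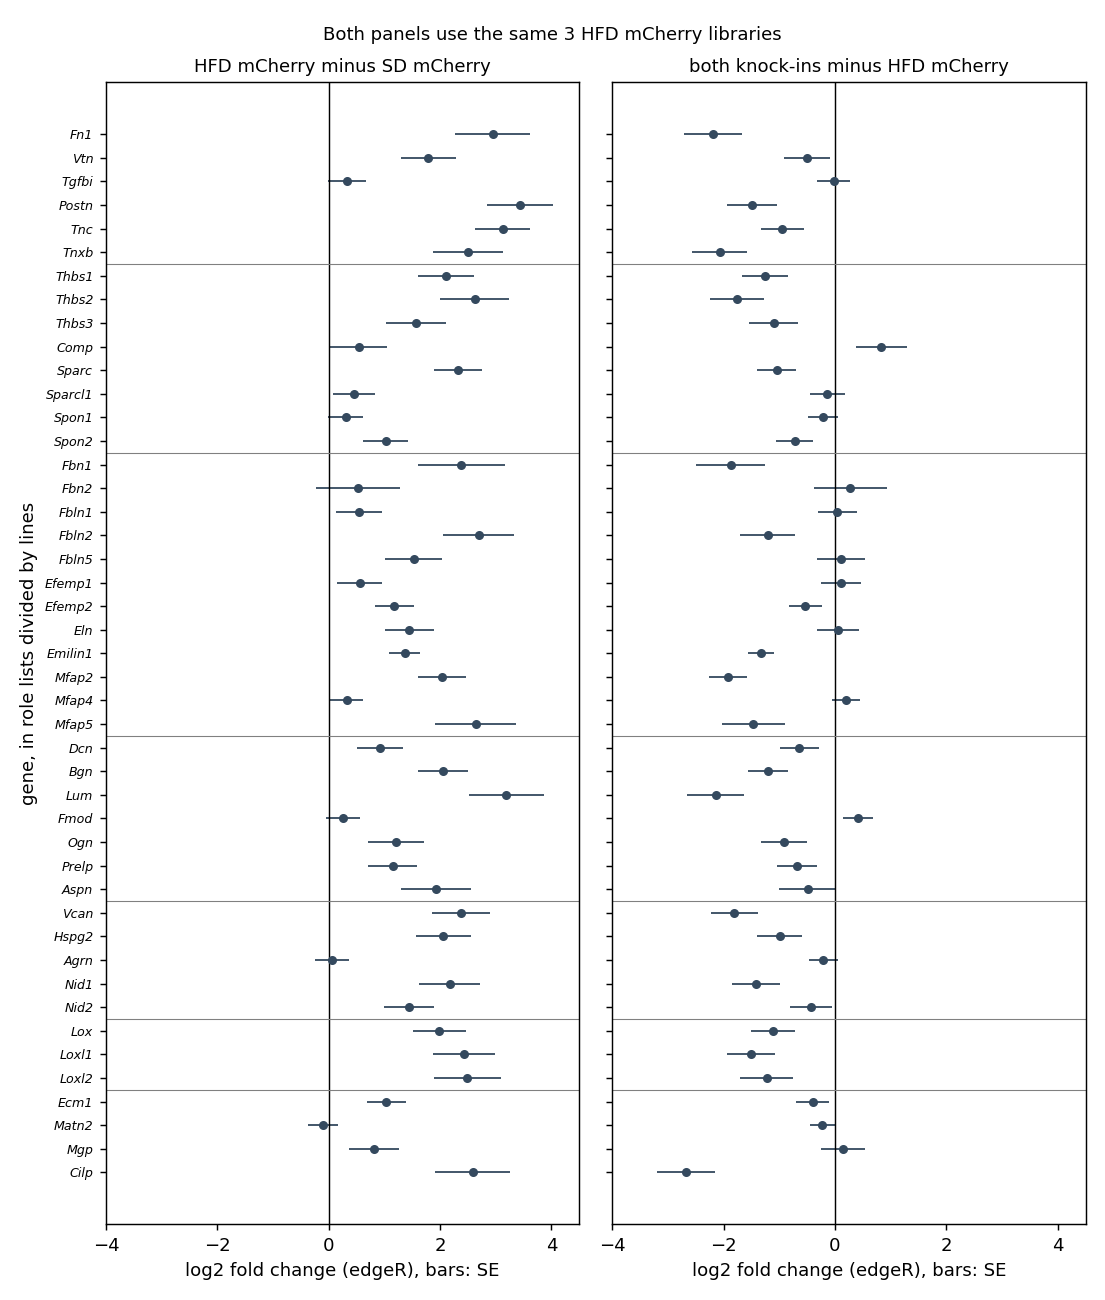
Log2 fold change of each matrix gene from edgeR (points) with its standard error (bars), for HFD mCherry minus SD mCherry (left) and both knock-ins minus HFD mCherry (right). With diet 44 of 45 points lie right of 0 and in the knock-ins 36 of 45 lie left of it, and the 2 panels share the HFD mCherry libraries.

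With the presence of Crisp1 in the model, edgeR called 10 members lower across both knock-ins (3.12% of all genes): Mfap2, Emilin1, Cilp, Vcan, Lum, Fn1, Tnxb, Postn, Loxl1 and Nid1. The same model called 0 in HFD Tert or HFD TertCi taken alone. Without HFD mCherry 15, 15 members were called lower across both knock-ins (3.57% of all genes), without HFD Tert 27, 9 (2.4%), and without SD mCherry 3, 7 (2.07%). In the 8 libraries with Crisp1 over 500 CPM, 2 per group, edgeR called 0 members in either comparison, and the median log2 fold changes were 1.63 with diet and -1.02 in the knock-ins. In the 4 libraries with Crisp1 under 1 CPM, 1 per group and so without a test, 44 members were higher in HFD mCherry than in SD mCherry, with a median log2 ratio of 1.86. Against the HFD mCherry library, 36 were lower in HFD Tert and 38 in HFD TertCi, with median log2 ratios of -0.722 and -1.01. The counts from these 8 and these 4 libraries are given without a share of all genes, so they describe the members alone. With 2 libraries per group, 0 calls do not show that the members were alike.

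Taken one at a time, HFD Tert had 34 members lower than HFD mCherry (53.8% of all genes were), 13 of them at an unadjusted p under 0.05 (9.75% of all genes), and 4 with groups that did not overlap (11.1% of all genes). HFD TertCi had 40 lower (52.6% of all genes were), 20 at an unadjusted p under 0.05 (8.92% of all genes), and 11 with groups that did not overlap (12% of all genes). edgeR called 0 members in either at an adjusted p under 0.05, where 0% of all genes were called lower in HFD Tert and 0.012% in HFD TertCi. DESeq2 called 6 and 9 (3.09% and 2.57% of all genes). The median log2 fold changes were -0.835 with Tert (-0.474 without HFD mCherry 20) and -0.971 with TertCi, beside -0.0534 and -0.0389 over all genes. The smallest adjusted p were 0.184 (Mfap2, -1.93 ± 0.43) in HFD Tert and 0.154 (Emilin1, -1.47 ± 0.28) in HFD TertCi. For Emilin1 the HFD Tert difference was -1.17 ± 0.28, and for Mfap2 the HFD TertCi difference was -1.92 ± 0.43.

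Set directly against each other, HFD Tert was above HFD TertCi in 42 of 45 members (48.2% of all genes were), by a median log2 fold change of 0.221, and no member had an unadjusted p under 0.05 in edgeR (0.766% of all genes were higher at that threshold). edgeR and limma-voom called 0 members at an adjusted p under 0.05 (edgeR 0% of all genes) and DESeq2 0 (0.0203% of all genes). Standard errors of these differences ran from 0.267 to 0.751, and the knock-in means were within 1.5 times of each other for 42 members. Groups did not overlap for Thbs2, Sparcl1 and Emilin1, all higher in HFD Tert, a count of 3 (2.55% of all genes). The direction rested on HFD Tert 27, the highest of its group for 34 members: without it the median was -0.100, with 18 members higher and 27 lower.

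Against SD mCherry, whose libraries both of these comparisons share, 43 members were higher with Tert and 41 with TertCi (45.9% and 44.3% of all genes), with medians of 0.842 and 0.560. At an unadjusted p under 0.05, 12 and 9 were higher (6.96% and 6.77% of all genes), and groups did not overlap for 18 and 13 (11.3% and 10.3%). edgeR called 0 at an adjusted p under 0.05 in either (0% of all genes). DESeq2 called Tnc, Postn, Sparc, Fbln5 and Eln higher in HFD Tert (5 members, 1.59% of all genes) and Tnc in HFD TertCi (1 member, 1.47%). Emilin1, Mfap2 and Cilp, the members with the smallest p against HFD mCherry, were 0.19 ± 0.28, 0.10 ± 0.41 and 0.06 ± 0.63 in HFD Tert against SD mCherry.

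By the means of the 4 groups, SD mCherry was lowest for 41 members (28.4% of all genes) and HFD mCherry highest for 33 (32%). The order SD mCherry, then TertCi, then Tert, then HFD mCherry held for 29 members (8.99% of all genes), among them Fn1, Postn, Sparc, Lum, Vcan and all lysyl oxidases. Within that order no member had an unadjusted p under 0.05 between Tert and TertCi in edgeR, although the libraries of Thbs2 did not overlap. Both knock-in means lay between those of SD mCherry and HFD mCherry for 30 members (16% of all genes). These orders describe means that share the same libraries, so 1 high or low group sets several of them at once.

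Levels of different genes can be compared only per length, here as CPM per kilobase of merged exons in GENCODE M21, averaged over the 12 libraries. On that scale Mgp (1404), Dcn (1176) and Sparc (1119.5) led, followed by Bgn (556) and Thbs1 (372). The scarcest were Fbn2 (0.640), a fibrillin of the embryo, Comp (2.27) and Spon1 (5.42). Dcn led in SD mCherry (883, with Mgp at 843), Sparc in HFD mCherry (2062), and Mgp in both knock-in groups (1502 and 1793). In 22 of the 45 genes another annotated gene overlaps on the same or the opposite strand, including Apol7d at Fn1, Gm29233 at Thbs1, Mtx1 at Thbs3, Mus81 at Efemp2, Mapk7 at Mfap4 and Cenpp at Ogn and Aspn. The use of strand in counting is not given in the sources used here, so reads of such pairs may be shared.

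The matrix genes can also be set against markers of progenitors and fibroblasts. The summed CPM of 10 progenitor and fibroblast markers ranged over 841 to 1525 in SD mCherry, 1321 to 3086 in HFD mCherry, 1364 to 2328 with Tert and 1150 to 1985 with TertCi, with none at 0 in any library. With diet 9 of these 10 markers were higher (45.9% of all genes were), and across both knock-ins 9 were lower (53.5% of all genes were). Pdgfra, a receptor of these cells, was the 1 marker of the 10 that edgeR called. It stood at 84.4 to 137 CPM in SD mCherry, 198 to 232 in HFD mCherry and 56.6 to 89.5 in the knock-ins. Its log2 fold change was -1.70 ± 0.18 across both (edgeR adjusted p = 0.0119) and -1.84 ± 0.22 with TertCi (adjusted p = 0.0426). Across both knock-ins 2 of the 10 markers were lower at an unadjusted p under 0.05 (13.4% of all genes were), Pdgfra and Cd248 (-2.00 ± 0.40). Thy1 (-0.49 ± 0.27), Ly6a (-0.18 ± 0.29) and Cd34 (-0.15 ± 0.35) were nearer 0, and Dpp4 was at 0.12 ± 0.24. The part of these markers in the matrix values was not tested beyond the ratio that follows. The summed CPM of the 45 matrix genes was 8.15, 7.06 and 9.15 times that marker sum in SD mCherry and 11.6, 14 and 15.7 times in HFD mCherry. In HFD Tert the ratio was 9.30, 10.1 and 11.1, and in HFD TertCi 9.58, 10.1 and 10.3. On this ratio the 3 HFD mCherry libraries lay above all knock-in libraries and the knock-ins above all SD mCherry libraries, with no test given because the ratio is a sum over chosen genes. The order depends on the markers chosen, and Cd34 and Ly6a gave 742 and 526 of the 2328 CPM in HFD Tert 27. Set against Pdgfra alone it did not hold. HFD mCherry 20 had 44973 CPM of matrix genes and 231 of Pdgfra, and HFD TertCi 31 had 19965 and 56.6. Endothelial markers (10 genes, none at 0) followed another order, with sums of 922 to 1299 CPM in SD mCherry, 1923 to 3455 in HFD mCherry, 2210 to 5326 with Tert and 2525 to 5381 with TertCi, and their part in the matrix values was not tested. Summed adipocyte markers (10 genes, with Retn at 0 in 1 library) were scarce in all libraries, at 56.3 to 194 CPM, and this sum was lowest in HFD mCherry. Of these 10, 8 were lower with diet and 2 higher (Plin1 and Lep), and across both knock-ins 8 were higher and 2 lower. Much of the sum came from Plin4 (11.1 to 99.6 CPM), Lipe (21.8 to 62.3) and Pck1 (0.42 to 63.9), and the part of these markers in the matrix values was not tested. Mesothelial markers (9 genes, none at 0) summed to 1350.3 to 4391 CPM in SD mCherry, 345 to 1334 in HFD mCherry, 709 to 2378 with Tert and 1038 to 1624 with TertCi. Of these 9, 8 were lower with diet and 8 higher across both knock-ins, with median log2 fold changes of -1.27 and 1.67, and their part in the matrix values was not tested.

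**Figure D4:**
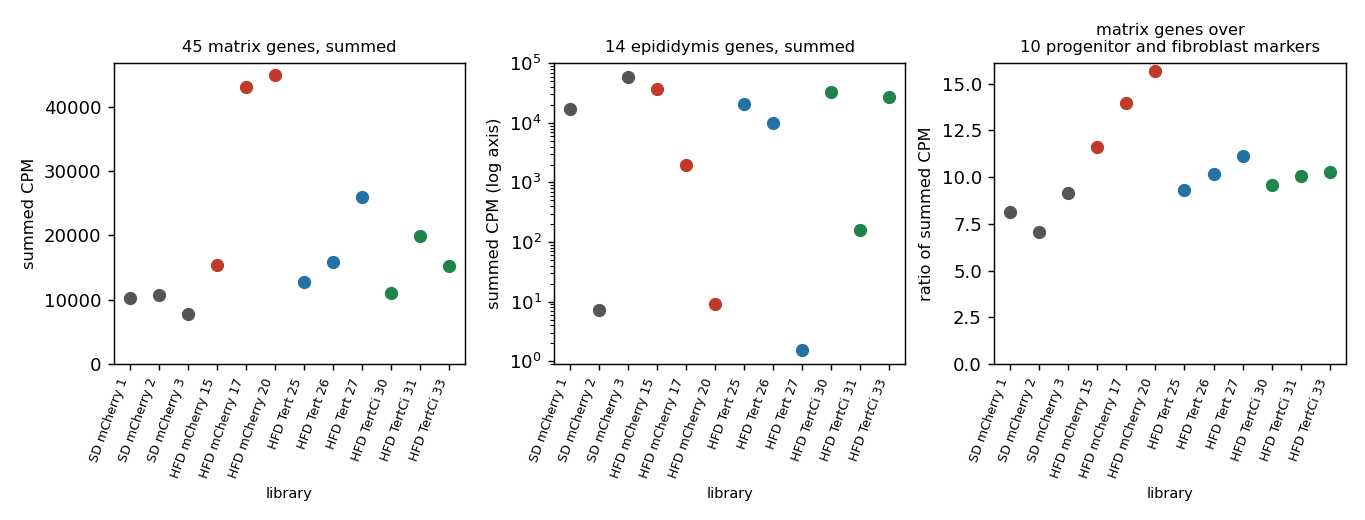
Per library, the summed CPM of the 45 matrix genes (left), the summed CPM of 14 epididymis genes on a log axis (middle), and the ratio of the matrix sum to the sum of 10 progenitor and fibroblast markers (right), coloured by group. In the left panel HFD mCherry 15, at 15360 CPM, lies among the knock-in libraries, and in the right panel, at 11.6, it lies above all of them.

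Libraries with Crisp1 over 500 CPM and under 1 CPM also differed within groups. In 12 members, among them Fn1, Fbln2, Vcan, Hspg2 and the 3 lysyl oxidases, the library with Crisp1 under 1 CPM was the highest of its group in all 4 groups (5.66% of all genes), and in 16 further members in 3 groups (16.8%). Spon2, Fbn2, Mfap4 and Matn2 were lowest in that library in 3 groups, a count of 4 (26% of all genes were lowest in 3 or 4). The part of the epididymal RNA in these levels was not tested apart from the model with Crisp1 and the values without it given above, and 1 further model. That model had the mean log2 level of epididymis genes as a covariate, and its calls are given below.

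A further 4 lists show the surrounding pathway. Of 21 genes of fibrillar collagens and collagen maturation, 21 were higher with diet, 19 at an unadjusted p under 0.05 (14.1% of all genes), and 21 were lower across both knock-ins, 11 at that threshold (13.4%). edgeR called 0 of them in either comparison, and DESeq2 called 17 higher with diet (7.85% of all genes) and 8 lower in the knock-ins (5.37%). Col1a1, a chain of collagen I, had means of 441 ± 211 CPM in SD mCherry, 3195 ± 1685 in HFD mCherry, 787 ± 247 with Tert and 714 ± 179 with TertCi (SD, n = 3). Col3a1, the collagen III chain, had a diet log2 fold change of 3.66 ± 0.73 and a knock-in one of -2.09 ± 0.55 (adjusted p = 0.0659 and 0.0919). The median of the list was 1.77 with diet and -1.11 in the knock-ins, beside 1.56 and -0.912 for the 45 members.

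Of 32 enzymes of glycosaminoglycan synthesis, which build the sugar chains of proteoglycans, 29 were higher with diet, 19 at an unadjusted p under 0.05 (14.1% of all genes), and 28 were lower in the knock-ins, 16 at that threshold (13.4%). Chpf2, a chondroitin polymerising factor, was 0.98 ± 0.19 higher with diet and -0.76 ± 0.16 in the knock-ins (adjusted p = 0.0659 and 0.056). Chst11, a chondroitin sulfotransferase, was 1.53 ± 0.31 higher with diet and -1.11 ± 0.25 in the knock-ins. Of 5 other crosslinking enzymes tested, 4 were higher with diet, 3 at an unadjusted p under 0.05 (14.1% of all genes). The other 1 was lower, also at that threshold (10% of all genes). Loxl3 was at 1.24 ± 0.29, Pxdn, a peroxidase that crosslinks collagen IV, at 1.44 ± 0.41, and Loxl4 at -0.80 ± 0.32 in the knock-ins.

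Among 50 other matrix glycoproteins and proteoglycans the directions were mixed, with 36 higher and 14 lower with diet and a median of 0.601. Smoc1, a SPARC-related calcium-binding protein, ran against the members. Its means were 78.5 ± 44.2 CPM in SD mCherry, 12.8 ± 2.97 in HFD mCherry, 48.2 ± 5.28 with Tert and 48.8 ± 11.8 with TertCi (SD, n = 3). Its log2 fold changes were -2.62 ± 0.38 with diet and 1.92 ± 0.34 in the knock-ins (adjusted p = 0.0562 and 0.0546). Ltbp2, a microfibril protein named for its family, was 1.72 ± 0.28 higher with diet (edgeR adjusted p = 0.0652). Fbln7, a further fibulin, was -1.93 ± 0.40 in the knock-ins (edgeR adjusted p = 0.0565).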

How the data were processed

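Whole-number read counts for 24422 gene symbols were deposited by the authors for every library, and nothing in the values points to prior scaling. Subread, SAMtools, featureCounts 1.6.4 and the build mm10 are named in the submitters' processing notes. Libraries were made from polyadenylated RNA, per the labels' protocols. Which annotation was counted, and whether strand was used, is not given in the sources used here.

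Counts were tested as deposited (edgeR 4.0.16, R 4.3.3). Low counts were removed with filterByExpr, set to a minimum count of 10 and the 4 groups, and the rest was scaled by TMM and fitted in 1 robust quasi-likelihood model over 12 libraries, 3 per group, without covariates. P-values of the 7 contrasts were 2-sided and adjusted by Benjamini-Hochberg over the 16713 genes kept, and a gene was called at an adjusted p under 0.05. A standard error is the log2 fold change divided by the root of F. The biological coefficient of variation was 0.536, with 8 residual degrees of freedom. The code was run on simulated data, at the dispersions of these data and at lower ones. A minimum recovery of changed genes was required only at the lower ones, so no power for these data is read from it. Depth ran from 16430330 to 19486965 counts, so for most members counting error was small beside the spread between libraries. Alternatives were DESeq2 1.42.0, limma 3.58.1 (voom), library size scaling, no filter, other sample sets, an epididymis score (mean log2 CPM of its genes) as covariate and each library left out. Those that use Crisp1 were added after seeing the data.

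The 45 genes, all lists and the tests were chosen with earlier results of these data known, so a pattern shown before is not independent support. Full values went by rule to the 2 members of each role list with the highest mean CPM over the 12 libraries, not corrected for length, the 2 with the smallest p in the diet and each knock-in comparison, and the 3 with the lowest diet fold change. In each pathway list the 2 genes with the smallest p were named. Lengths and overlaps came from GENCODE M21 and promoter windows from RefSeq GRCm38.p6, and figures from matplotlib 3.10.9.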

Additional observations from a re-analysis of the deposited data

How the results depend on the processing

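No paired analysis was possible because no replicate number occurs in more than 1 group. Leaving out each library in turn, the members called by edgeR ranged from 0 to 32 with diet, 0 to 2 with Tert, 0 to 4 with TertCi and 0 to 15 across both knock-ins. Each highest count came without HFD mCherry 15, where 8.76% of all genes were called higher with diet. In the other 3 comparisons 0.287, 1.08 and 3.57% were called lower. DESeq2 called 28 members with diet, 6 with Tert, 9 with TertCi, 14 across both knock-ins, 5 for Tert against SD and 1 for TertCi against SD (7.85, 3.09, 2.57, 5.37, 1.59 and 1.47% of all genes in that direction). With the epididymis score as covariate edgeR called 30, 19, 20 and 23 in the first 4 of these (7.91, 4.53, 4.54 and 8.53% of all genes in that direction), and omitting both HFD mCherry 15 and HFD Tert 27 it called 32, 15, 14 and 24 (11.8, 4.49, 2.98 and 7.06%). HFD mCherry 15 was the lowest of its group for 43 members and HFD Tert 27 the highest of its group for 34. Leaving them out therefore widens these differences by itself, and the calls without them are no independent support. With Crisp1 presence as a block the calls were 28 with diet and 10 across both knock-ins (6.6 and 3.12% of all genes in that direction). Across both knock-ins scaling by library size alone gave 2 calls (Emilin1 and Mfap2, with 0.425% of all genes called lower) and fitting only the groups compared 1 (Cilp, with 0.303%). The cause of these differences was not tested. Library size alone moved the median of all genes with diet from -0.0753 to -0.280 and that of the members from 1.56 to 1.28.

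The median log2 fold change of the 45 members had the same direction under every alternative run in all comparisons but Tert against TertCi, where it was -0.0999 omitting both libraries and ranged from -0.100 to 0.471 with 1 library left out. For Tert it was -1.37 omitting both and ranged from -1.16 without HFD mCherry 15 to -0.474 without HFD mCherry 20, and across both knock-ins from -1.22 to -0.583 without the same libraries.

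Single members near 0 changed sign. With diet, Fbn2 was -0.0779 in the 8 libraries with Crisp1, Agrn -0.17 by library size alone and -0.00670 omitting both, and Matn2 0.0554 omitting both. Across both knock-ins, by library size alone Tgfbi was 0.10 and Sparcl1 0.0130. With the epididymis covariate Fbln1 was -0.00231, Fbln5 -0.11, Efemp1 -0.0336 and Eln -0.0764. Omitting both, Fbln1 was -0.22, Fbln5 -0.45, Efemp1 -0.25, Eln -0.43 and Mgp -0.29. In the 8 libraries Sparcl1 was 0.13, Fbln5 -0.15, Efemp1 -0.00816, Matn2 0.0489 and Mgp -0.11, and with the Crisp1 block Fbn2 was -0.18. With 1 library left out, values ran for Comp from -0.0201 to 0.90, Agrn from -0.26 to 0.32 and Matn2 from -0.27 to 0.13 with diet. Across both knock-ins the ranges were Tgfbi from -0.26 to 0.16, Sparcl1 from -0.45 to 0.0491, Fbn2 from -0.0018 to 0.56, Fbln1 from -0.31 to 0.27, Fbln5 from -0.22 to 0.37, Efemp1 from -0.21 to 0.40, Eln from -0.29 to 0.42 and Mgp from -0.18 to 0.40.

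Counting error weighs most on the scarce members Comp (29 to 171 counts per library) and Fbn2 (17 to 309).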
